A study of Homo sapiens with 6 samples.

Results

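The integrated stress response is a pathway by which cells slow protein synthesis and switch on a set of repair genes. Kinases that sense short amino acids, unfolded protein, viral RNA or haem deficit phosphorylate the initiation factor eIF2, general translation drops, and the mRNA of ATF4 is then translated more through its upstream reading frames. ATF4, a basic leucine zipper (bZIP) factor, pairs with C/EBP proteins and turns on genes of amino acid uptake and synthesis together with its own partners and brakes. Asparaginase, a drug for acute lymphoblastic leukaemia, works by depleting an amino acid and so engages this pathway. The 10 genes described here are ATF4, its bZIP relatives and partners ATF3, ATF5, DDIT3, CEBPB and CEBPG, the small chromatin protein gene NUPR1, and the feedback genes TRIB3, CHAC1 and PPP1R15A. They were found by gene name among the 58735 genes of the deposited tables, and all 10 were present.

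Expression was measured by poly(A) RNA sequencing in MOLT-3, an established line of human T-cell acute lymphoblastic leukaemia. It is 1 cell line, so the libraries do not sample different leukaemias. Cells received either DMSO, the solvent, or compound E, an inhibitor of gamma-secretase, the protease that frees the active part of NOTCH receptors, with 3 libraries per treatment. The sources used here give no dose or time. Nor do they say that replicates came from different cultures. The p-values therefore reflect how far these libraries differ from each other, which may be technical variation alone.

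Total counts lay between 17316138 and 19845114 per library. Of 6 NOTCH pathway genes checked, 5 were called lower and 1 higher with compound E (over all tested genes, 19.4% and 18.9%). DTX1, a NOTCH target, fell from 172 ± 6.86 to 7.06 ± 1.03 CPM (SD, n = 3 per group). All 7 T-lineage markers checked had at least 10 counts in every library, and their summed level was 2474 to 2539 CPM with DMSO and 3230 to 3315 CPM with compound E. RAG1, of V(D)J recombination, rose from 546 ± 8.09 to 1583 ± 34.9 CPM, and the other 6 were called lower. The part of this shift in the values below was not tested. Markers of other cell types, 10 in number, summed to 25.2 to 26.9 CPM with DMSO and 23.8 to 25.3 CPM with compound E. Of these, 2 (MS4A1 and HBB) were at 0 in every library, and 2 others had at least 10 counts in every library. CPM here is the TMM-scaled count rate that edgeR gives for each library, and fold changes are compound E against DMSO.

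Of the 10 genes, 9 had enough counts for a test, and all of those 9 fell with compound E. A gene was called at an adjusted p under 0.05 in edgeR's quasi-likelihood test, adjusted by Benjamini and Hochberg's method for the 16926 genes tested. Over all tested genes 19.4% were called lower and 18.9% higher, beside 9 of 9 lower here. The 10 genes were chosen with earlier results of these data known, so this excess is no independent support. At least 2-fold falls were seen in 5 of them (ATF4, DDIT3, CEBPB, TRIB3 and CHAC1), against 2.63% of all tested genes. ATF5 fell 1.98-fold, just under this cut, and passed it with some of the other settings described below. In each of the 9, every compound E library lay below every DMSO library, a pattern found in 23.5% of tested genes. Each of the 9 had at least 48 counts in every library of both groups, so none entered the test through its high group alone. The tenth gene, NUPR1, was close to silent, with 3, 1 and 0 counts under DMSO against 0, 1 and 1 under compound E. It was not tested and no fold is given. NUPR1 (ENSG00000176046) lies on the minus strand of chromosome 16 from 28532708 to 28539174. In bulk RNA, fewer cells expressing a gene and less RNA per cell cannot be told apart.

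The upstream sequence of these genes was examined because ATF4 with a C/EBP partner binds a composite element, the CARE. The search used TGATGNAA for the CARE, TGACGTCA for the cAMP response element (CRE) that ATF and CREB factors bind, and GTGGGAA for RBPJ, the DNA-binding partner of NOTCH. The endoplasmic reticulum stress element (ERSE) was also searched. Both strands were read in RefSeq windows (GRCh38.p14) from 250 bases before to 50 bases after each gene start. Windows were found for 9 of the 10 genes, 18 in all, since several genes have more than 1 start. A CARE match was present in 3 of these 9 genes, against 4.46% of all 27301 genes with a window, and a CRE match in 1, against 2.25%. An RBPJ match was present in 2, against 7.63%. These genes have more windows per gene than all genes do, which favours them in a share of genes. By window, the CARE, CRE and RBPJ shares were 16.7%, 5.56% and 11.1%, against 3.62%, 1.85% and 6.25% of all 35116 windows. No ERSE match was found in the 9 genes, and 0.0916% of all genes had one. A match is a string of letters and not a measured binding site.

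The CARE matches are shown with their flanks to give the place and letters of each string, with the matched bases in capitals. The CHAC1 match is on the opposite strand of the gene, so its capitals read as the reverse complement.
CHAC1, chr15:40953252-40953279, plus strand: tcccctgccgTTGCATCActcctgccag
CEBPG, chr19:33374061-33374088, plus strand: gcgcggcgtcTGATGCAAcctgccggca
ATF3, chr1:212565206-212565233, plus strand: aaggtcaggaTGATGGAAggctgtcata
The CHAC1 match begins 209 bases before the RefSeq start, in an exon of longer GENCODE 29 transcripts of the gene. That of CEBPG begins 42 bases before its downstream start, in an intron of the longer transcript, and that of ATF3 begins 191 bases before the upstream start, outside the annotated gene.

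CHAC1 and CEBPG carry the same core on opposite strands and ATF3 carries another letter at the free position. Their changes were not alike. CHAC1 fell most of all 9 genes while CEBPG and ATF3 were among those that fell least, so these 3 genes with a match span most of the range of falls. The single CRE lay in PPP1R15A, the gene with the smallest fall, and its upstream stretch of 221 bases ahead of the first annotated exon is shown whole for that reason, with the CRE and an RBPJ match on the opposite strand in capitals.
PPP1R15A, chr19:48872171-48872391, plus strand: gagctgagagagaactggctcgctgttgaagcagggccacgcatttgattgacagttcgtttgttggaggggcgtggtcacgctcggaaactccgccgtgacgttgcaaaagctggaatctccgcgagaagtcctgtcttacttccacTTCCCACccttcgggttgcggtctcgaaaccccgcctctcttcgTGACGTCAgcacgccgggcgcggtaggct

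ATF4 stood far above its relatives in level. Per length, it had 295, 291 and 292 FPKM in DMSO replicates 1 to 3 and 139, 143 and 143 FPKM in compound E replicates 1 to 3. It ranked 86 of 58735 genes by mean FPKM with DMSO and 202 with compound E. The DMSO libraries were nearly equal to each other and more than 2 times the highest compound E library. In CPM the mean fell from 743 ± 4.39 to 357 ± 5.27 (SD, n = 3 per group), a 2.08-fold fall. The log2 fold change was -1.06 ± 0.0253 (SE; edgeR adjusted p = 4.75e-30), and under the 18 alternative fits it stayed between -1.07 and -1.04. ATF4 (ENSG00000128272) lies on chromosome 22 from 39519695 to 39522685 on the plus strand (GRCh38). Of the 4 ATF4 pseudogenes checked, ATF4P3 had the most counts, 4 to 12 per library, against 6419 to 14663 for ATF4.

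**Figure D1:**
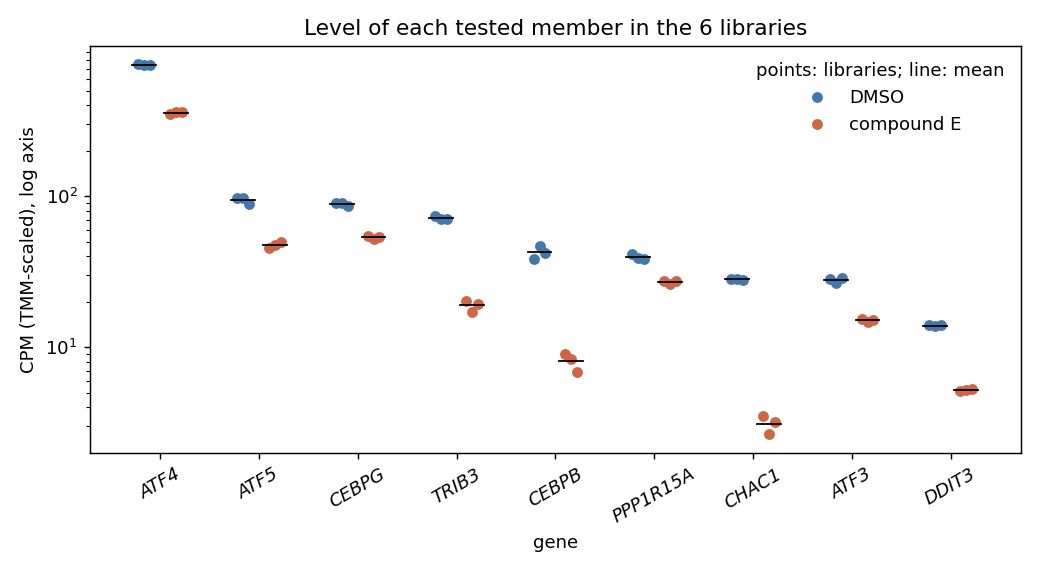
CPM of the 9 tested genes (log axis) in each of the 6 libraries, DMSO in blue and compound E in orange, with points for libraries and a line for the mean of 3. In every gene the 3 compound E points lie below the 3 DMSO points, with the widest gap in CHAC1 and the narrowest in PPP1R15A.

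Of the bZIP relatives and partners of ATF4, ATF5, ATF3 and CEBPG fell by amounts close to or below its own, and CEBPB and DDIT3 fell by more. ATF5, which is itself under translational control and serves survival and mitochondrial stress programmes, had 96.9, 97.3 and 89.2 CPM with DMSO and 45.7, 47.7 and 49.7 CPM with compound E. The groups did not overlap, and the fall was 1.98-fold (log2 fold change -0.99 ± 0.0445, SE; edgeR adjusted p = 5.66e-21). ATF5 (ENSG00000169136) lies on chromosome 19 from 49928702 to 49933935, plus strand. NUP62 and IL4I1, on the other strand, overlap its start. NUP62 had 2730 to 3574 counts per library, with compound E at 3192 to 3574, so its counts did not fall beside those of ATF5.

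ATF3 is an early stress factor that can repress as well as activate. It had 28.3, 26.8 and 28.7 CPM with DMSO and 15.4, 14.6 and 15.1 CPM with compound E, a 1.85-fold fall (log2 fold change -0.89 ± 0.0690, SE; edgeR adjusted p = 9.26e-14). ATF3 (ENSG00000162772) lies on chromosome 1 from 212565334 to 212620777, plus strand, with 11 transcripts in GENCODE 29, and the counts do not say which of them fell.

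The C/EBP partners parted from each other. CEBPG, a dimer partner without an activation domain of its own that pairs with ATF4 at amino acid response genes, had 90.2, 89.8 and 86.6 CPM with DMSO and 54.5, 52.2 and 53.7 CPM with compound E. That is a 1.66-fold fall (log2 fold change -0.73 ± 0.0413, SE; edgeR adjusted p = 6.57e-18), the smallest among the transcription factors. CEBPB, an activator that ATF4 induces and that pairs with it, had 38.7, 46.7 and 42.3 CPM with DMSO and 9.03, 8.30 and 6.85 CPM with compound E. This 5.29-fold fall (log2 fold change -2.40 ± 0.0830, SE; edgeR adjusted p = 8.71e-25) was the largest among the transcription factors. CEBPB was also the most variable in the DMSO libraries, with a coefficient of variation of 9.51%, and its lowest DMSO library was still 4.28 times its highest compound E library.

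CEBPB has a single transcript on chromosome 20, from 50190734 to 50192689 on the plus strand (ENSG00000172216). The antisense gene CEBPB-AS1 overlaps its start and had 21, 26 and 32 counts with DMSO and 4, 5 and 4 with compound E. Whether the authors' counting used strand is not stated, so reads of the overlap cannot be assigned, and CEBPB itself had 129 to 926 counts. CEBPG (ENSG00000153879) lies on chromosome 19 from 33373330 to 33382686, plus strand.

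DDIT3 encodes CHOP, a bZIP protein that ATF4 induces and that promotes death under lasting stress. It had 13.9, 13.7 and 14.0 CPM with DMSO and 5.09, 5.20 and 5.26 CPM with compound E. The libraries within a group were tightly spaced, and the fall was 2.68-fold (log2 fold change -1.42 ± 0.105, SE; edgeR adjusted p = 1.96e-14). DDIT3 (ENSG00000175197) lies on the minus strand of chromosome 12 from 57516588 to 57521737, and the methionyl-tRNA synthetase gene MARS ends inside it on the plus strand at 57517569. MARS, with 5878 to 6629 counts with DMSO and 2975 to 3056 with compound E, also fell, and DDIT3 had only 243 to 272 and 93 to 99. MBD6, also on the plus strand, overlaps the other end and had 1680 to 1978 counts with DMSO and 1390 to 1535 with compound E, and MIR616 lies within DDIT3 with 3 to 17 counts. The part of reads from these genes in the DDIT3 counts was not tested.

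The feedback genes held both the largest and the smallest fall. CHAC1, which degrades glutathione, had 28.5, 28.2 and 27.7 CPM with DMSO and 3.50, 2.66 and 3.19 CPM with compound E. Its 9.01-fold fall (log2 fold change -3.17 ± 0.0991, SE; edgeR adjusted p = 3.20e-26) ranked 29 from the lowest of the 16926 tested genes. With 48 to 64 counts in the compound E libraries, its coefficient of variation there was 13.7%, as was that of CEBPB. The gene (ENSG00000128965) lies on chromosome 15 from 40952962 to 40956519, plus strand.

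TRIB3 encodes a pseudokinase that binds ATF4 and restrains it. It had 74.2, 71.0 and 71.2 CPM with DMSO and 20.3, 17.2 and 19.3 CPM with compound E, a 3.81-fold fall (log2 fold change -1.93 ± 0.0559, SE; edgeR adjusted p = 2.58e-27). TRIB3 (ENSG00000101255) lies on chromosome 20 from 362835 to 397559, plus strand. PPP1R15A, or GADD34, guides phosphatase PP1 to eIF2 and so ends the translational block. Its values were 41.6, 39.2 and 38.1 CPM with DMSO and 27.6, 26.4 and 27.5 CPM with compound E. The groups did not overlap, and the fall of 1.46-fold was the smallest of the 9 (log2 fold change -0.55 ± 0.0564, SE; edgeR adjusted p = 2.11e-10). PPP1R15A (ENSG00000087074) lies on chromosome 19 from 48872392 to 48876057, plus strand.

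**Figure D2:**
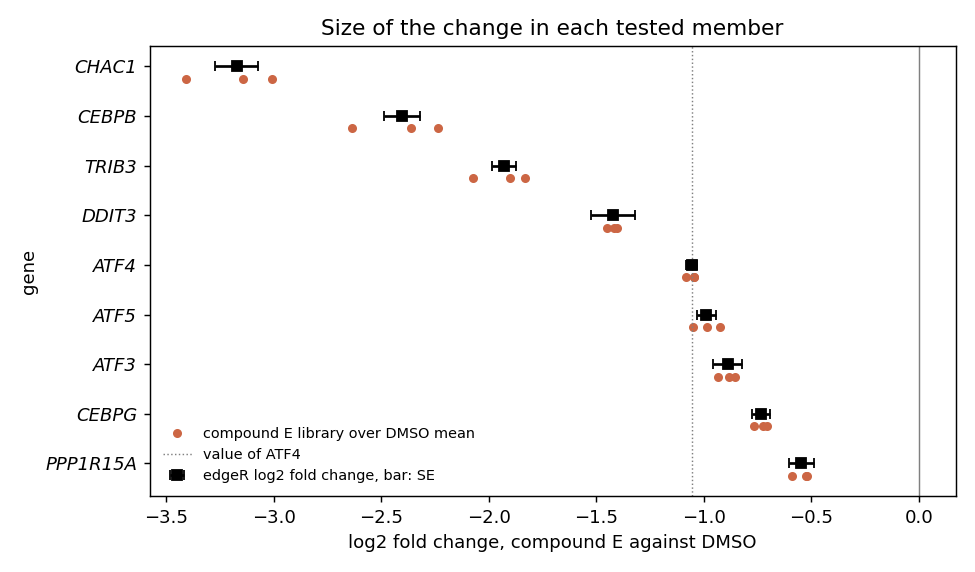
Log2 fold change of each tested gene (squares, with bars for the SE) and the log2 ratio of each compound E library to the DMSO mean (orange points), in order of size, with a dotted line at the value of ATF4. CHAC1, CEBPB, TRIB3 and DDIT3 lie to the left of ATF4, at -3.17 to -1.42, and ATF3, CEBPG and PPP1R15A lie to its right, at -0.89 to -0.55.

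The 9 falls therefore differed in size by more than the spread between libraries. Relative to ATF4, the log2 fold change was lower by 2.12 ± 0.102 in CHAC1, by 1.35 ± 0.0868 in CEBPB, by 0.87 ± 0.0614 in TRIB3 and by 0.37 ± 0.108 in DDIT3 (differences with their SE, which treats the genes as independent; no test was made). It was higher by 0.51 ± 0.0618 in PPP1R15A and by 0.32 ± 0.0484 in CEBPG. ATF4 and ATF5 differed by 0.07 ± 0.0512, and ATF5 and ATF3 by 0.10 ± 0.0821. In both of these neighbouring pairs the ranges of the compound E libraries over the DMSO mean overlapped, so those 3 genes could not be ordered fully. In the other neighbouring pairs the ranges did not overlap. ATF3 and CEBPG, however, differed by only 0.16 ± 0.0804, so their order is weak as well. These ranges leave out the spread of the DMSO libraries.

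The order of levels changed with it. With DMSO the order by FPKM was ATF4, ATF5, CEBPB, TRIB3, CEBPG, CHAC1, PPP1R15A, DDIT3, ATF3 and NUPR1. The ranges of CEBPB and TRIB3 overlapped, as did those of CHAC1 and PPP1R15A, and CEBPB, at 19.6 to 23.6 FPKM, also covered the 19.4 to 20.3 FPKM of CEBPG in part. With compound E, CEBPG at 11.8 to 12.3 FPKM and PPP1R15A at 8.50 to 8.88 FPKM came directly after ATF5, at 15.4 to 16.8 FPKM. CEBPB at 3.49 to 4.59 FPKM overlapped both DDIT3, at 3.87 to 4.01 FPKM, and ATF3, at 3.60 to 3.80 FPKM. CHAC1, at 1.29 to 1.69 FPKM, was last before NUPR1.

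Set against ATF4 in the same library, the partners and brakes shifted in both directions. For each 100 FPKM of ATF4 there were 4.57 to 4.65 FPKM of CHAC1 with DMSO and 0.900 to 1.22 with compound E. For CEBPB these values were 6.64 to 8.12 and 2.45 to 3.30, and for TRIB3 7.02 to 7.26 and 3.48 to 4.23. CEBPG went the other way, from 6.66 to 6.92 with DMSO and 8.25 to 8.85 with compound E. PPP1R15A likewise had 4.18 to 4.52 with DMSO and 5.95 to 6.40 with compound E per 100 FPKM of ATF4. Only ATF5 had overlapping ranges among these 8 genes, at 10.2 to 11.2 and 11.1 to 11.7. The FPKM of the 10 genes summed to 426 to 434 with DMSO and 195 to 199 with compound E, of which ATF4 made up 67.5% to 68.5% and 71.1% to 72.4%.

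**Figure D3:**
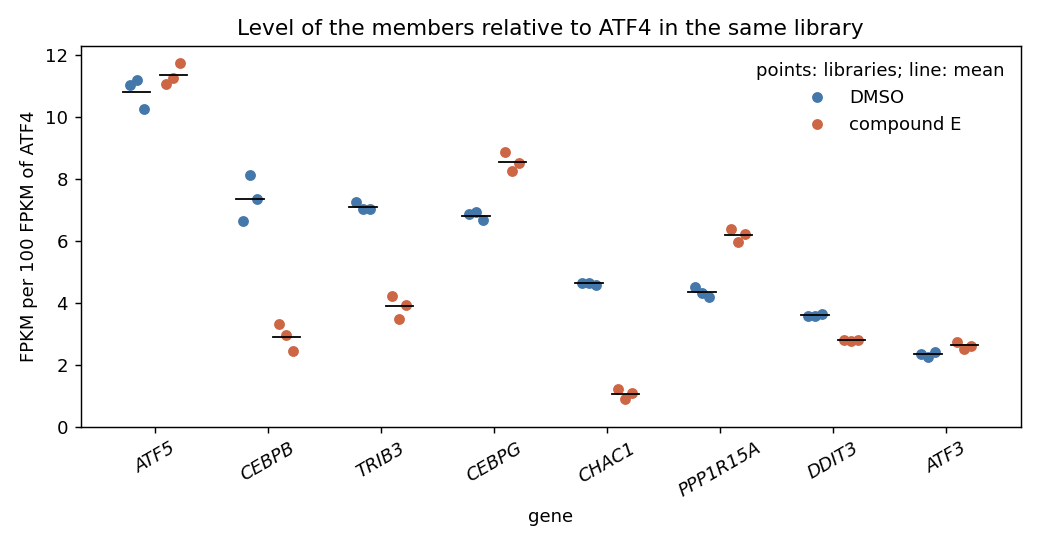
FPKM of 8 genes per 100 FPKM of ATF4 in the same library, DMSO in blue and compound E in orange, with points for libraries and a line for the mean of 3. CEBPB, TRIB3, CHAC1 and DDIT3 are lower relative to ATF4 with compound E, CEBPG, PPP1R15A and ATF3 are higher, and the ATF5 ranges overlap.

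Genes whose profile over the 6 libraries was most like that of ATF4 were sought among 10108 other protein-coding genes averaging 5 CPM or more. The measure was the root mean square difference in log2 of CPM over the DMSO mean, in which the treatment shift dominates. The closest was SLC7A1, a transporter of cationic amino acids, at a difference of 0.0152. It went from 428 ± 4.81 to 208 ± 3.19 CPM (SD, n = 3 per group). Next were MARS (0.0318), NXN, a thioredoxin-like protein (0.0426), the serine hydroxymethyltransferase gene SHMT2 (0.0543), the isoleucyl-tRNA synthetase gene IARS (0.0553) and the glutamine transporter SLC1A5 (0.0558). For DDIT3 the closest were SPNS3, at 0.0316, SLC3A2, the heavy chain of amino acid transporters, at 0.0436, and MTHFD1L, of mitochondrial folate metabolism, at 0.0498.

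The known targets of ATF4 outside these 10 genes fell in most cases. Of 60 listed, 58 were tested, and 48 were called lower and 5 higher, with a median log2 fold change of -0.995 beside -0.0034 over all tested genes. The shares were 82.8% and 8.62%, beside 19.4% and 18.9% of all tested genes. This list was also chosen with earlier results of these data known, so the excess is no independent support. FGF21 and GDF15 had too few counts. The largest falls among targets averaging 5 CPM or more were in SLC7A11, the cystine transporter (-3.65), SLC6A9 (-3.36) and VEGFA, an angiogenic factor (-3.21). ADM2, a secreted peptide (-2.52), VLDLR, a lipoprotein receptor (-2.48), and SESN2, a leucine sensor (-2.16), followed. The 5 that rose were DDIT4 (0.38), the autophagy genes SQSTM1 (0.32) and MAP1LC3B (0.19), the GTPase gene RIT1 (0.16) and IL23A (0.48), which was at only 2.27 ± 0.354 CPM with DMSO. The higher calls were 3 in place of 5 without DMSO replicate 3, and also without either replicate 1 or replicate 2 of compound E. ASNS, a textbook ATF4 target singled out after its values were seen, was low already with DMSO, at 4.10 CPM, and was 0.929 CPM with compound E.

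A CARE match stood in the windows of 16 of 49 listed targets with a window, 32.7% beside 4.46% of all genes. By window, the share was 22.9% of 70, beside 3.62% of all windows. In the 250 bases before the start alone the match stood in 8 of 49, 16.3% beside 3.89% of all genes. Of the 16, 15 were tested, and all 15 were called lower, with log2 fold changes from -2.53 to -0.60 and a median of -1.03. Among 32 tested targets with a window and no match, 24 were called lower and 5 higher, with a median of -0.57. Their log2 fold changes ran from -4.115 to 0.48, so the deepest fall was in a target without a match. That target, STC2, was near the floor, with 5, 3 and 8 counts in compound E replicates 1 to 3. In 12 of these 32 the value was below that of ATF4, beside 6 of the 15 with a match. Tested targets without a window are in neither group. Over all tested genes 19.4% were called lower and 18.9% higher. The list and the element come from the same literature on ATF4, so the share is no independent measure of it. The following lines show 4 of the targets that repeat the core seen at CHAC1 and CEBPG, in capitals, each given on the strand of its gene. AARS, CARS, FGF21, MARS, NARS, SLC1A4 and TARS carry the same core and are not shown. In HERPUD1 and IARS the core is on the opposite strand of the gene. The 4 genes shown were chosen from those with this core after their values were seen.
SLC1A5, chr19:46784894-46784921, minus strand: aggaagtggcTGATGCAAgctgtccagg
JDP2, chr14:75427996-75428023, plus strand: tagccggggcTGATGCAAcccgtcccgc
HERPUD1, chr16:56931956-56931983, plus strand: acgcggcgggTTGCATCAgcccgtgccc
IARS, chr9:92293693-92293720, minus strand: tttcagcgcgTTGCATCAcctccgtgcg
SLC1A5 fell by 0.99 on the log2 scale, HERPUD1 by 0.76, IARS by 1.02 and JDP2 by 2.53.

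The sensors and machinery upstream of ATF4 did not move together. Of 22 genes of the eIF2 kinases, eIF2, its exchange factor eIF2B and their regulators, 21 were tested, 6 were called lower and 7 higher, shares of 28.6% and 33.3% beside 19.4% and 18.9% of all tested genes. EIF2AK1, the haem-regulated kinase, rose by 0.10 on the log2 scale, and EIF2AK2, EIF2AK3 and EIF2AK4, the kinases for double-stranded RNA, unfolded protein and amino acid shortage, were at 0.04, 0.11 and 0.04 and were not called. The largest fall was in EIF2S2, the beta subunit of eIF2, from 319 ± 5.20 to 168 ± 1.86 CPM (log2 fold change -0.92). EIF2A, which is not a subunit of eIF2 (-0.52), and the gamma subunit EIF2S3 (-0.41) followed. The alpha subunit EIF2S1 was called higher (0.09, edgeR adjusted p = 0.0314). PPP1CA, the catalytic subunit of PP1, rose (0.29), and so did DNAJC3, an inhibitor of the kinases (0.29). The number of higher calls fell from 7 to 3 without DMSO replicate 1 and to 4 without compound E replicate 3.

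Of 26 further CREB/ATF and C/EBP genes 24 were tested, and 7 were called lower and 5 higher, with a median log2 fold change of -0.09. These shares, 29.2% and 20.8%, lay near the 19.4% and 18.9% of all tested genes. The largest falls were in genes of low level that the list shares with the ATF4 targets. CREB3L1, a membrane-bound factor, was at 3.49 ± 0.119 CPM with DMSO and 0.327 ± 0.0572 CPM with compound E (log2 fold change -3.39), and JDP2, a bZIP repressor, was at 8.18 and 1.41 CPM (-2.53). CEBPE, a C/EBP factor of myeloid maturation, fell from 14.9 ± 0.396 to 4.63 ± 0.736 CPM (log2 fold change -1.69), and NFE2L2, the oxidative stress factor NRF2, fell by 0.42. XBP1, of the unfolded protein response, rose from 12.7 ± 0.0915 to 22.1 ± 0.640 CPM (0.80), and CREB3L2 (0.20), CREM (0.19) and CREB3 (0.17) rose a little. The number of higher calls in this list was 3 without DMSO replicate 2, DMSO replicate 3 or compound E replicate 3, and 2 without compound E replicate 2. CEBPA, at 1.01 CPM with DMSO, was not called, and CEBPD was too low to test.

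Among paralogs of the feedback genes, TRIB2, a pseudokinase gene linked to leukaemia, fell by 0.38, from 103 ± 0.278 to 79.0 ± 0.954 CPM, and PPP1R15B, the constitutive partner of PP1, fell by 0.14. Of the 5 listed, 4 were tested, and 2 were called lower and 1 higher. So few genes cannot be set against the 19.4% and 18.9% of all tested genes. The higher calls were 2 without compound E replicate 3. TRIB1 rose (0.52), from 3.83 to 5.49 CPM, and CHAC2, the constitutive relative of CHAC1, was at 0.20 (edgeR adjusted p = 0.117) and was not called. NUPR2 was at 0 counts in every library. Each of these changes was smaller than that of its paralog among the 10 genes, by the values given; the difference between paralogs was not tested.

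Targets of the other arms of the unfolded protein response were called higher more often than lower. Of 27 targets of ATF6 and XBP1 listed, 26 were tested, 14 were called higher and 3 lower, with a median log2 fold change of 0.19 beside -0.0034 over all tested genes. XBP1, ATF6 and DNAJC3 are in this list and were also counted in the bZIP or eIF2 lists above. The shares were 53.8% and 11.5%, beside 18.9% and 19.4% of all tested genes. As with the other lists, the genes were chosen with earlier results known, so this excess is no independent support. HSP90B1, a chaperone of the endoplasmic reticulum, rose from 178 ± 5.99 to 272 ± 9.54 CPM (0.61), HYOU1 rose by 0.53, and SDF2L1 (0.43) and CRELD2 (0.41) rose as well. ERN1, the sensor IRE1 that splices XBP1, fell from 108 ± 1.92 to 58.3 ± 2.01 CPM (-0.89), and EDEM1 (-0.38) and ATF6 itself (-0.17) also fell.

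Of 10 genes for the turnover and modification of ATF4 protein, 4 were called higher and 3 lower (over all tested genes, 18.9% and 19.4%). A list of 10 genes gives few calls to set against those shares. EGLN3, an oxygen-dependent prolyl hydroxylase that acts on ATF4, rose from 3.91 ± 0.391 to 11.0 ± 1.03 CPM (log2 fold change 1.49), the only change of at least 2-fold in this list. The ubiquitin ligase subunits BTRC, at -0.05 and not called, and FBXW11, which fell by 0.12, changed little, and the coactivator EP300 rose by 0.15. The lower calls were 1 in place of 3 without DMSO replicate 2 or compound E replicate 2. Protein levels and the phosphorylation of eIF2 were not measured.

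**Figure D4:**
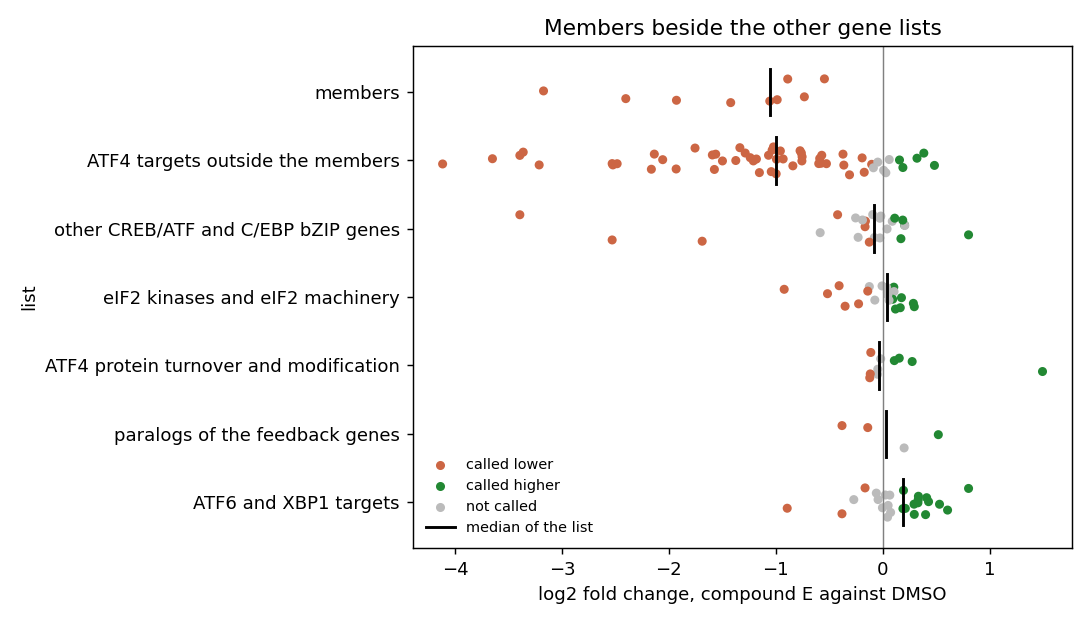
Log2 fold change of the tested genes of each list (points, called lower in orange, called higher in green, not called in grey; vertical line at the list's median; vertical scatter is arbitrary). The 9 tested members and most ATF4 targets lie left of 0, with medians of -1.06 and -0.995, and ATF6 and XBP1 targets lie mostly to the right, with a median of 0.19.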

How the data were processed

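Poly(A) RNA of 6 MOLT-3 libraries, 3 with DMSO and 3 with compound E, was sequenced, and samples were grouped by the treatment in the labels. The deposited table of whole-number read counts per gene was not normalised. The FPKM table deposited by the authors equals, per the values, count over gene length and 1 divisor per library. The submitters' processing notes name HISAT2 2.0.5, featureCounts 1.5.0-p3 and DESeq2 1.16.1 with no role or order. The sources used here do not give build, annotation, strand use or the handling of multiple matches. All 58735 genes matched GENCODE release 29 (GRCh38) in position and name.

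Counts were tested in R 4.3.3 with edgeR 4.0.16 (filterByExpr, 16926 genes; TMM; quasi-likelihood test; Benjamini-Hochberg over all tested genes; threshold 0.05). The SE is the log2 fold change over the square root of F. The biological coefficient of variation was 2.72%. The code was tested on simulated data. Replicates of a group differed by more than counting noise. The alternatives, 18 in all, changed scaling, filter, tool (DESeq2 1.42.0, limma 3.58.1, limma on log2 of FPKM plus 1 or 0.1), gene set and replicate block, or left out 1 library.

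The 10 genes and all lists were chosen with earlier results of these data known. Named by rule were the 10 genes, up to 6 called genes per list with the largest change and a mean of at least 5 CPM, up to 4 called exceptions, and the genes most like ATF4 (6) and DDIT3 (3). The eIF2 kinases, AARS, ASNS, BTRC, CARS, CEBPA, CEBPD, CHAC2, CREB3L1, EIF2S1, FGF21, GDF15, HERPUD1, IL23A, JDP2, NARS, NUPR2, SLC1A4, STC2, TARS and TRIB1 were named outside the rule, with their values known. Promoter windows are RefSeq's (GRCh38.p14), matched by symbol.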

Additional observations from a re-analysis of the deposited data

How the results depend on the processing

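All 162 member values (9 tested genes under 18 alternatives) kept their direction and stayed called, so 9 were lower and 0 higher under each. ATF3 ranged from -0.92 to -0.74, DDIT3 from -1.44 to -1.22, CEBPB from -2.49 to -2.15, TRIB3 from -1.98 to -1.75, CHAC1 from -3.26 to -2.54 and PPP1R15A from -0.57 to -0.49, and the largest adjusted p was 0.000986 (PPP1R15A). CEBPG ranged from -0.75 to -0.68. ATF5 ranged from -1.02 to -0.94, so it passed a 2-fold fall under some alternatives. The replicate block gave 9 lower and 0 higher members and 6138 called genes. Deviations of same-numbered samples correlated at -0.003, -0.043 and -0.015, and those of samples with different numbers at -0.054 to 0.070. No shared shift by replicate number was seen, which does not say whether the samples were paired.

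Counts of weak calls in the lists moved, and the cause was not tested. With upper quartile scaling, higher calls were 4 among eIF2 genes and 3 among bZIP genes. With DESeq2 they were 3 among eIF2 genes, 2 among bZIP genes and 3 among ATF4 targets, and the turnover list had 1 lower call. With limma on log2(FPKM + 1) or log2(FPKM + 0.1), bZIP genes had 3 higher calls. Without a filter, limma on log2(FPKM + 1) called 4002 genes, with higher calls of 3 among eIF2 genes, 3 among bZIP genes, 0 among paralogs and 3 among ATF4 targets, and 0 lower calls in the turnover list. Leaving out each library in turn gave higher calls of 3 to 6 among eIF2 genes, 2 to 6 among bZIP genes, 1 to 2 among paralogs and 3 to 4 among ATF4 targets, and 1 to 3 lower calls in the turnover list. Depth was lowest for CHAC1, DDIT3 and CEBPB, with 48 to 64, 93 to 99 and 129 to 165 counts with compound E.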
